A study of Mus musculus with 14 samples.

Results

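Rejecting and accepted mouse heart grafts were compared 7 days after heterotopic transplantation by the microRNAs that could be measured in whole-heart RNA. The measurement was real-time PCR on TaqMan rodent array cards, in which each well reports the threshold cycle (Ct) of one assay and a lower Ct means more RNA. The compared grafts came from animals aged 8 to 10 weeks by the labels. Syngeneic grafts were C57BL/6 hearts placed in C57BL/6 recipients, with rejection recorded as "No", and allogeneic grafts were BALB/c hearts placed in C57BL/6 recipients, with rejection recorded as "Yes". Each group had 3 arrays, each array held equal amounts of RNA from 3 animals, and n therefore counts pools. One further array held the pooled RNA of 3 normal, untransplanted BALB/c hearts. The donor strain differs along with the graft group, so that strain and rejection cannot be told apart from these 6 arrays. The labels do not say whether the pools of a group came from separate operations, and p-values measure the spread between pools. In whole-graft RNA, fewer cells of a type and less microRNA per cell also cannot be told apart.

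Of the 375 microRNA assays on the card, 238 were detected, with a Ct under 35, on all 3 arrays of at least 1 graft group, and these are described here. Of them, 221 had a Ct under 35 in every well of both groups that could be used, 11 entered through the syngeneic arrays alone and 6 through the allogeneic arrays alone. The other 137 assays comprised 98 detected on no graft array and 39 detected on some. The choice did not use the difference between the groups, but an assay that entered through 1 group was bound to differ in detection. Just inside the limit lay miR-137 and miR-153, with a highest Ct of 33.0 in the allogeneic group that admitted each of them. Just outside lay miR-98 and miR-431, which were undetermined on at least 1 array of each group.

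MicroRNAs are RNAs of about the length of those printed below that guide Argonaute proteins to messenger RNAs. Target choice depends mainly on the seed, bases 2 to 8 from the 5′ end, so that microRNAs with one seed can act on overlapping sets of messages even when they are made from different genes in different cells. In a rejecting heart, infiltrating leukocytes bring microRNAs of the blood lineages, such as miR-142, while cardiac muscle, endothelium and connective tissue carry others, such as miR-1, miR-126 and miR-199a. Many microRNAs lie in introns or in clusters and are cut from one transcript with their neighbours. The cutting also yields 2 arms from each hairpin, named 5p and 3p, of which one is usually kept more than the other.

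RefSeq mature sequences were matched to 165 of the 238 assays. The sequences that follow carry the comparisons described below and are printed 5′ to 3′ with the seed in capitals. The first set is shown because its members share a seed and moved in opposite directions in the grafts.
miR-15b: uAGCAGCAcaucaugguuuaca
miR-16: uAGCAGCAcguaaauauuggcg
miR-195: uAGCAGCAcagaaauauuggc
miR-322: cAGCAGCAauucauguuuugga
miR-497: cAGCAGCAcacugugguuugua
On the GRCm38.p6 assembly, to which all positions here refer, miR-15b lies at chr3:69009775-69009796 on the plus strand, inside Smc4. miR-497 and miR-195 are neighbours on the plus strand of chromosome 11, at chr11:70234730-70234751 and chr11:70235062-70235082. miR-322 lies at chrX:53054306-53054327 on the minus strand.

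A second seed was also called in both directions, and its 4 measured members are shown for that reason.
miR-25: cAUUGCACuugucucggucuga
miR-92a: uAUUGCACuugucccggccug
miR-32: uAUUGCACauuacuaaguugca
miR-367: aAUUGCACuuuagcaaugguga
miR-25 lies inside Mcm7, at chr5:138165332-138165353 on the minus strand, and miR-367 inside Larp7, at chr3:127545779-127545800 on the plus strand.

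The next sequences belong to pairs that differ in a single base and that are compared below.
miR-10a: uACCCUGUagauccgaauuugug
miR-10b: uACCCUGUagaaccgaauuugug
miR-103: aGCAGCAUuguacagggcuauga
miR-107: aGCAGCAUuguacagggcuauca
Counted from the 5′ end, miR-10b differs from miR-10a by U12A and miR-107 differs from miR-103 by G22C. miR-10a lies in the Hoxb3 region at chr11:96317186-96317208 and miR-10b beside Hoxd4 at chr2:74726074-74726096, both on the plus strand. How far each assay reads the other member of its pair was not tested.

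The rises that the results turn on are represented by these microRNAs, which came from 7 seeds.
miR-96: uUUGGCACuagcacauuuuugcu
miR-182: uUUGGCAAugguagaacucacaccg
miR-183: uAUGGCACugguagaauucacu
miR-210: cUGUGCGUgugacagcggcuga
miR-451: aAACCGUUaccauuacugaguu
miR-142-3p: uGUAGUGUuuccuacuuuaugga
miR-7a: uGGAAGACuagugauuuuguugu
miR-7b: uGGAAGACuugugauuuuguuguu
miR-182, miR-96 and miR-183 lie within 3771 bases on the minus strand of chromosome 6, at chr6:30165962-30165986, chr6:30169506-30169528 and chr6:30169711-30169732. miR-210 lies at chr7:141221407-141221428 on the minus strand, miR-451 at chr11:78073186-78073207 and miR-142-3p at chr11:87756903-87756925, both on the plus strand.

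The falls are represented by microRNAs of muscle, endothelium and connective tissue.
miR-208: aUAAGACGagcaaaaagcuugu
miR-208b: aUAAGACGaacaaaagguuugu
miR-126-3p: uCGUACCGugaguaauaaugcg
miR-199a-3p: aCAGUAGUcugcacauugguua
miR-214: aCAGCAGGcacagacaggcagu
miR-204: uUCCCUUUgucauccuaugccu
miR-135a: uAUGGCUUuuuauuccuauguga
miR-30c: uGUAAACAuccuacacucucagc
miR-30e: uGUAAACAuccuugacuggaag
miR-208 lies in the myosin gene Myh6 at chr14:54949072-54949093 and miR-208b in its neighbour Myh7 at chr14:54975710-54975731, both on the minus strand. miR-126-3p lies in Egfl7 at chr2:26591402-26591423 and miR-204 in Trpm3 at chr19:22750610-22750631, both on the plus strand. miR-214 lies at chr1:162223438-162223459 on the plus strand, inside Dnm3os, with a copy of miR-199a-3p at chr1:162217883-162217904.

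The heart arrays detected between 228 and 260 microRNA assays each. The level of an assay is given in log2 units, as the mean Ct of 210 reference assays on the same array minus the assay's own Ct, so that higher is more and a difference between groups is a log2 fold change. The mean reference Ct ran from 22.4 to 23.9. A well that was undetermined or at Ct 35 or later stood at 35. Small RNA controls, which took no part in the scaling, differed between the groups by -0.43 (Y1) to 0.58 (U87), with MammU6 at 0.12 and snoRNA202 at -0.15. The spread between pools was small at strong signals and larger at weak ones. Over the 220 assays detected on all 6 graft arrays, the 42 with a mean Ct under 20 had a median SD of 0.22 in syngeneic and 0.33 in allogeneic pools, and the 23 at Ct 28 or later one of 0.44 and 0.47.

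Group means were compared with limma, and an assay was called when its Benjamini-Hochberg adjusted p over the 238 assays was under 0.05. By that rule 77 assays were called (32.4%), of which 41 were higher (17.2%) and 36 lower (15.1%) in allogeneic hearts. The allogeneic and syngeneic values did not overlap in 129 assays (54.2%). The whole distribution was centred near 0, with a median difference of 0.02 log2 units and quartiles at -0.77 and 0.68. Calls were not confined to weak signals: of the 220 assays detected on all 6 graft arrays, 40.5% of those under Ct 20 were called against 21.7% of those at Ct 28 or later. With 1 pool left out in turn, 20 of the 41 rises and 17 of the 36 falls stayed called in all 6 refits. The calls numbered 24 higher and 18 lower without syngeneic pool 2, 22 and 23 without syngeneic pool 3, and 22 and 21 without allogeneic pool 1. Scaled to MammU6, a shift of -0.12 in all differences, 18 were called higher and 16 lower. The split was 42 to 23 when scaled to snoRNA202 (a shift of 0.15), 24 to 56 with the reference median in place of the reference mean (-0.26), and 35 to 52 with reference assays chosen over the 6 graft arrays (-0.12). The scaling changed SEs as well as differences. For miR-133a the SE was 0.26 in the main fit, 0.49 scaled to MammU6 and 0.26 with reference assays chosen over the 6 graft arrays. No called assay changed direction in the 24 alternative fits, although miR-133a came to 0 under quantile normalization. The groups did not overlap in any of the 77 called assays, which largely fixes the direction when a pool is left out. Fits that changed only the moderation, or left out the normal array, kept the differences themselves. No support was therefore read from the unchanged directions.

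**Figure D1:**
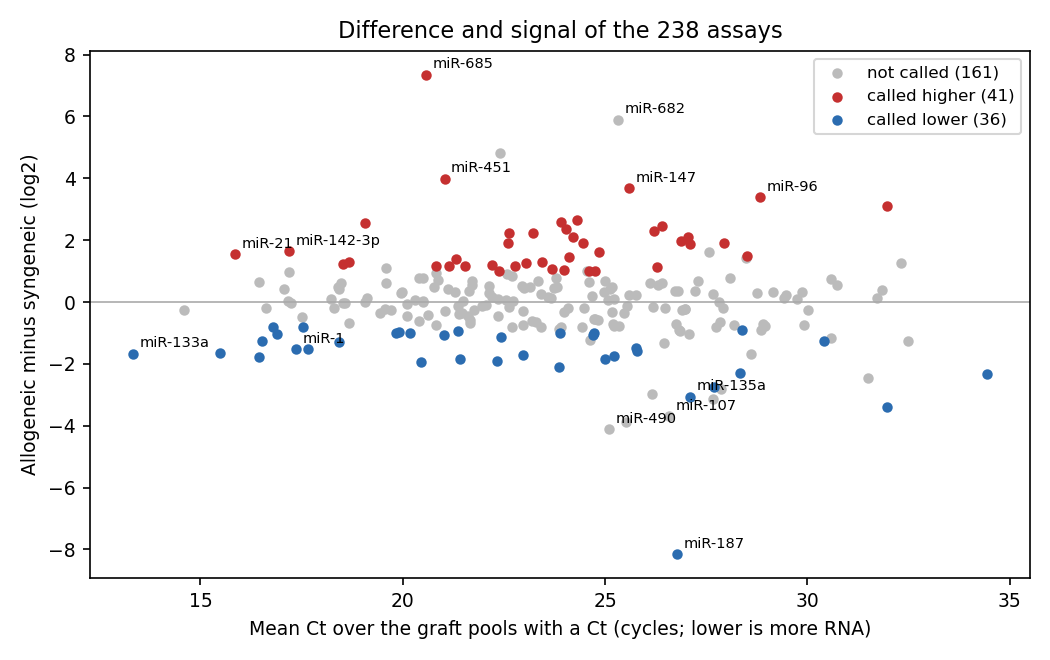
Allogeneic minus syngeneic difference (log2 units) of each of the 238 assays against its mean Ct over the graft pools with a Ct (cycles). The 41 assays called higher (red) and the 36 called lower (blue) lie across the whole range of signal, and several of the largest differences that were not called (grey) are those of assays undetermined in 1 or 2 pools.

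The largest rises separated the 6 grafts without overlap and were mostly absent from, or low in, the normal heart. miR-685 stood at -0.61, -1.61 and -0.91 in syngeneic pools 1, 2 and 3 and at 5.81, 7.32 and 5.79 in the allogeneic pools. The rise was 7.35 ± 0.49 log2 units (SE, n = 3 pools per group; limma adjusted p = 2.86e-04), and the normal array did not detect it. miR-147, which Toll-like receptor stimulation induces in macrophages, stood at -3.76, -3.74 and -5.16 in syngeneic and at -0.75, -0.11 and -0.74 in allogeneic pools. It too was undetected in the normal heart. miR-451, which is made by red cell precursors and stays in erythrocytes, was the most variable of the large rises. Its levels were 1.59, -1.20 and 0.17 in syngeneic pools and 4.14, 4.82 and 3.56 in allogeneic pools, and the normal heart, at 2.91, lay between the groups. The fitted rise of miR-451 was 3.99 ± 0.71, and it ran from 3.29 to 4.69 as pools were left out. Of the 4 assays on the erythroid and platelet list 2 were called higher, miR-451 and miR-15b, against 17.2% of all assays. The others, miR-486 at -0.16 and miR-16 at 0.43, were not called.

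The chromosome 6 cluster printed above, known from sensory organs and from activated T cells, rose in each of its 3 members. miR-96 stood at -7.10, -7.72 and -7.14 in syngeneic and at -4.09, -4.07 and -3.60 in allogeneic pools. miR-182 stood at -2.99, -2.08 and -2.18 against 0.51, 0.64 and -0.46. miR-183 stood at -5.37, -3.75 and -4.15 against -1.37, -2.27 and -2.29, with 1 of its heart wells marked by the instrument software. In all 3 members the lowest allogeneic pool lay above the highest syngeneic pool. In the normal heart miR-96 and miR-183 were undetected and miR-182 stood at -5.62, below all 6 grafts. The summed level of the 3 assays ran from -2.67 to -1.66 in syngeneic and from 0.02 to 0.90 in allogeneic grafts.

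miR-210, the microRNA most regularly induced by hypoxia through HIF, stood at 3.31, 2.67 and 2.63 in syngeneic and at 5.33, 5.84 and 5.10 in allogeneic pools. The 2.55 ± 0.31 rise was called under every one of the 6 other scalings, and the normal heart, at 1.91, lay below all grafts. miR-21, which increases in stressed and fibrotic hearts and in activated leukocytes, was among the assays with the least spread. Its levels were 6.72, 6.40 and 6.63 in syngeneic and 8.29, 8.10 and 8.0 in allogeneic pools, against 3.37 in the normal heart. The rise of miR-21 was 1.55 ± 0.21 (limma adjusted p = 0.00437), but it was not called when scaled to MammU6.

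The cluster inside Sfmbt2, a rodent-specific array of related hairpins, rose in 6 of its 6 measured assays, against 17.2% of all assays. Its median was 2.24 log2 units against 0.02 over all assays. miR-467c had the tightest values of the group, at -1.94, -1.72 and -2.30 in syngeneic and at 0.62, 0.57 and 0.61 in allogeneic pools. miR-467a stood at -0.87, -1.02 and -1.45 against 1.36, 1.29 and 0.73. miR-669a stood at 0.18, -0.48 and -1.32 against 1.97, 1.5 and 1.64. The rises of miR-467b, miR-467d and miR-467e were 1.90, 2.31 and 1.92, and that of miR-467d was not called without allogeneic pool 1 (adjusted p = 0.0551). miR-467c, miR-467d and miR-669a were undetected in the normal heart, which had miR-467a at -3.12, miR-467b at -2.21 and miR-467e at -3.12. These hairpins are near copies of one another, and how far 1 assay reads its neighbours' products is uncertain. The other 5 assays of the cluster on the card did not meet the detection rule.

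Leukocyte microRNAs did not move as one. Both arms of miR-142, which is made throughout the blood lineages, rose. miR-142-3p stood at 5.40, 5.41 and 4.81 in syngeneic and at 6.99, 6.74 and 6.81 in allogeneic pools, and at 2.62 in the normal heart. miR-142-5p rose by 1.02 ± 0.30 and was called in only 1 of the 6 refits with a pool left out. Neither arm was called when scaled to MammU6. The summed level of both arms ran from 4.83 to 5.43 in syngeneic and from 6.75 to 7.00 in allogeneic grafts. miR-342, which lies inside Evl and is abundant in lymphocytes, rose in both arms. The call of the 3p arm (1.30) was lost in 5 of 6 refits and held under 1 of the 6 other scalings. The 5p arm stood at -1.89, -1.83 and -2.26 in syngeneic and at 0.16, -0.27 and 1.22 in allogeneic pools and was undetected in the normal heart.

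Among other leukocyte assays, miR-223 overlapped between the groups, and miR-155 and miR-150 did not overlap but were not called. miR-223, the neutrophil and monocyte microRNA, stood at 4.80, 6.05 and 5.82 in syngeneic and at 6.67, 5.81 and 7.07 in allogeneic pools. Syngeneic pool 2 was above allogeneic pool 2, and the difference of 0.96 ± 0.46 was not called (limma adjusted p = 0.149). miR-155, induced on activation of lymphocytes and macrophages, stood at 2.65, 3.58 and 3.03 against 4.56, 3.67 and 4.34. Its 1.10 ± 0.35 difference just missed the threshold, allogeneic pool 2 lying close to syngeneic pool 2. miR-150, abundant in resting lymphocytes, stood at 5.94, 6.11 and 5.82 against 5.44, 5.67 and 5.27, and its -0.49 difference was not called. Allogeneic pool 2 was the lowest of its group for miR-223, miR-155, miR-342-3p and miR-222. Over the myeloid list 1 of 5 assays was called, miR-147, a share near the 17.2% of all assays called higher, and the list's median was 0.67. Over the lymphocyte list 2 of 7 rose and 1 fell, where 17.2% and 15.1% of all assays did, with a median of -0.35. The list's summed levels overlapped, from 7.21 to 7.43 in syngeneic and from 6.93 to 7.22 in allogeneic grafts. The normal heart summed to 7.86, above every graft, so that the sum was not read as an amount of lymphocytes.

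Proliferation-linked clusters rose in part. Among the 11 measured members of the cluster from miR-17 to miR-92a and its paralogues, miR-18a, miR-25 and miR-106b were called higher, against 17.2% of all assays, and the differences ran from 0.43 to 1.41 with a median of 0.63. miR-18a stood at -0.49, -0.95 and -1.16 in syngeneic and at 0.93, 0.28 and 0.01 in allogeneic pools, and at -3.10 in the normal heart. miR-106b and miR-25, both inside the replication gene Mcm7, rose by 1.41 and 1.26, while their neighbour miR-93 stood at 0.49 without passing. None of the 3 calls held with every pool left out. In the related miR-130 family, miR-130b rose from -1.73, -1.53 and -1.57 to -0.06, 0.12 and -0.50, while miR-130a differed by 0.11 and miR-301a by 0.30, neither called. The rise of miR-130b was 1.47 ± 0.24 and held in all 6 refits, but it was not called when scaled to MammU6.

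Further rises came from X-linked clusters and from smaller families. miR-500, in an intron of the chloride channel gene Clcn5, rose from -1.52, -2.15 and -2.44 to -0.14, 0.14 and 0.16. miR-362-3p of the same cluster rose by 1.13, and the median of its 6 measured assays was 0.91. miR-221 and miR-222, which repress the cell cycle inhibitor Cdkn1b, lie within 617 bases of chromosome X and rose by 1.15 and 1.22. The call of miR-221 was lost when syngeneic pool 2, syngeneic pool 3 or allogeneic pool 1 was left out, and that of miR-222 in 5 of 6 refits. miR-7a stood at -4.54, -4.54 and -4.89 in syngeneic and at -2.34, -2.76 and -2.93 in allogeneic pools. Its seed partner miR-7b stood at -4.86, -4.63 and -5.13 against -2.97, -3.73 and -1.60, with a wider spread among allografts. The 2 assays each had 1 heart well marked by the software.

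Of 5 epithelial assays 3, all of the miR-200 family, were called higher, against 17.2% of all assays. miR-200c, miR-200a and miR-141 had rises of 1.08, 1.63 and 1.5, and miR-200b stood at 0.99 without passing. miR-200a was spread widely in syngeneic pools, at -1.45, -2.49 and -3.37, against -0.82, -0.49 and -1.10 in allogeneic pools, and the normal heart stood at -0.67, within the range of the allografts. The calls of miR-200a and miR-141 were each lost in 5 of 6 refits with a pool left out and that of miR-200c in 4. miR-205 and miR-429 did not meet the detection rule, and miR-203, a keratinocyte microRNA, stood at -0.88 without passing. miR-153, a neuronal microRNA, was undetected in the syngeneic pools and had a Ct of 30.9, 33.0 and 32 in the allogeneic pools. It was at least 8.57-fold higher there, which rests on Ct values close to the limit, and the normal heart had it above all grafts at -4.57. miR-153 met the detection rule through the allogeneic arrays alone, which favours a rise. Of the other 4 neuronal assays measured, miR-9, miR-128a, miR-137 and miR-138, none was called.

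**Figure D2:**
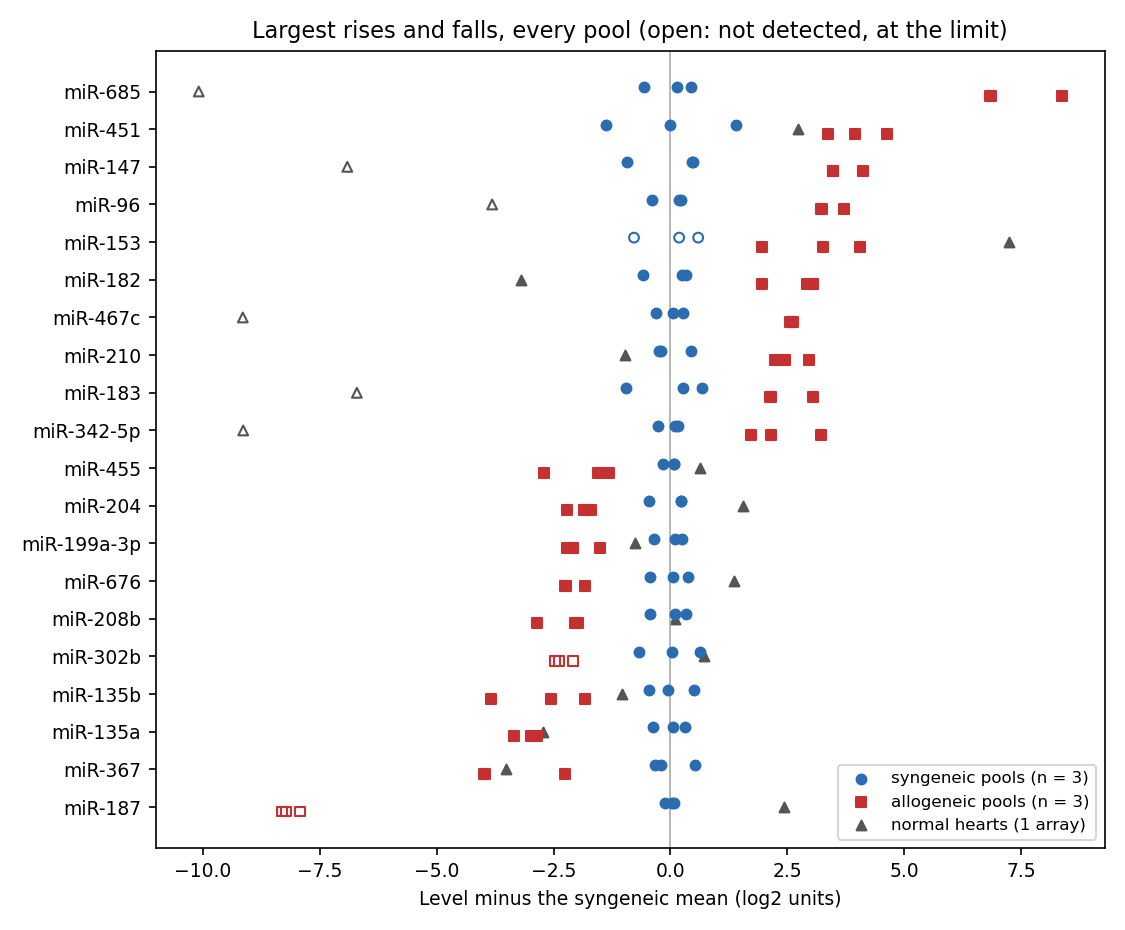
Levels of the 20 called assays with the largest changes, 10 in each direction, in each syngeneic pool (blue circles), each allogeneic pool (red squares) and the normal heart array (grey triangles), as log2 differences from the syngeneic mean. Open symbols are undetected wells at the limit. The syngeneic and allogeneic pools do not overlap in any row, and the normal heart lies far below both groups for miR-685, miR-147, miR-467c and miR-342-5p.

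Among the falls, muscle microRNAs were lower in all allogeneic pools than in any syngeneic pool. miR-1, which promotes muscle differentiation, stood at 6.09, 6.99 and 6.78 in syngeneic and at 5.22, 5.00 and 5.04 in allogeneic pools, and at 8.18 in the normal heart. A rat-named assay for miR-1 on the same cards gave -1.54 ± 0.36, against -1.53 ± 0.29 for the mouse-named assay. miR-133a, its partner in muscle, stood at 10.33, 10.75 and 11.07 against 9.05, 8.95 and 9.14. miR-208 and miR-208b, carried in the myosin heavy chain genes Myh6 and Myh7, differ from each other by G10A, A16G and C18U. miR-208 stood at -1.95, -1.80 and -1.70 in syngeneic and at -3.67, -2.75 and -3.48 in allogeneic pools. miR-208b stood at -3.86, -4.40 and -3.63 against -6.81, -6.01 and -5.93. In the normal heart miR-208b lay within the syngeneic range, at -3.86, and miR-208 above it, at -0.51. The summed level of the 7 muscle assays ran from 10.54 to 11.27 in syngeneic and from 9.13 to 9.47 in allogeneic grafts, against 12.18 in the normal heart. Of the 7 assays 5 fell, against 15.1% of all assays, and 0 rose, and the call of miR-133b was lost in 4 of 6 refits with a pool left out.

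Of the endothelial, smooth muscle and connective tissue lists some members fell beside those of muscle. Both arms of miR-126 fell among 4 endothelial assays, 1 of 2 smooth muscle assays fell and 2 of 5 fibroblast assays fell, against 15.1% of all assays. The endothelial list also held a rise, that of miR-10a by 1.00 ± 0.30, whose call was lost in 5 of 6 refits, while miR-10b differed by -0.80 without passing. miR-126-3p, which sustains vascular endothelium, stood at 8.42, 8.38 and 8.86 in syngeneic and at 7.22, 6.53 and 7.01 in allogeneic pools. Its other arm, miR-126-5p, had the smaller spread, at 5.43, 5.38 and 5.54 against 4.22, 4.12 and 4.10. Both arms were above all 6 grafts in the normal heart, at 9.89 and 6.56. miR-145 of smooth muscle stood at 6.86, 6.82 and 6.80 against 6.12, 5.46 and 5.82, while miR-143, its partner, differed by -0.47 without passing. The miR-145 call was lost when any 1 of the 3 syngeneic pools was left out, at an adjusted p of up to 0.0716. The pair miR-199a-3p and miR-214, which come from one transcript of mesenchymal cells, fell together. miR-199a-3p stood at 3.98, 3.39 and 3.85 against 1.53, 1.65 and 2.22, and miR-214 at 3.16, 2.20 and 2.80 against 0.20, 1.85 and 0.57. The miR-214 call was lost in 5 of 6 refits. In the normal heart both stood below the syngeneic pools, at 2.97 and 1.46.

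The summed levels set these groups side by side. The endothelial assays summed to 8.56 to 9.01 in syngeneic and to 6.81 to 7.42 in allogeneic grafts. Those of smooth muscle summed to 6.91 to 7.01 and 5.73 to 6.27, and those of fibroblasts to 6.83 to 7.15 and 6.51 to 6.75. Such a sum is set mainly by its most abundant assays, miR-126-3p in the endothelial list and the miR-29 members in the fibroblast list. The miR-29 members of the fibroblast list differed by -0.66 (miR-29c) to 0.48 (miR-29b) without a call. No defining assay of muscle, endothelium or smooth muscle was undetected on all arrays of a group, though miR-490 of muscle was undetermined in allogeneic pool 2. All levels are relative to the mean of the reference assays, so that a rise of one set of cells and a fall of another move together on this scale. What part the mix of cells has in the results for other microRNAs was not tested.

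Several of the largest falls belong to none of these cell lists. miR-187 stood at -3.56, -3.72 and -3.52 in syngeneic pools, was undetected in the allogeneic pools and was at its highest in the normal heart, at -1.17. With allografts at the limit the fall was at least 283-fold. miR-187 met the detection rule through the syngeneic arrays alone, which favours a fall. miR-135a, whose seed family is known to target Apc, stood at -2.73, -2.31 and -2.04 in syngeneic and at -5.22, -5.70 and -5.35 in allogeneic pools. Here the normal heart was close to the allografts, at -5.08. miR-135b stood at -3.57, -2.60 and -3.16 against -4.93, -6.96 and -5.67. miR-204, in the channel gene Trpm3, stood at 1.39, 2.06 and 2.08 against -0.02, 0.15 and -0.36, and at 3.39 in the normal heart. miR-676 stood at -0.02, 0.46 and 0.80 against -1.85, -1.83 and -1.41. miR-224, inside Gabre, fell from -0.93, -1.28 and -1.15 to -3.23, -2.47 and -2.93.

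A pair of microRNAs of pluripotent cells, cut from a single transcript inside Larp7, were called lower at the edge of detection. Both met the detection rule through the syngeneic arrays alone, which favours a fall. miR-367 stood at -7.75, -7.03 and -7.89 in syngeneic pools, and in allogeneic pools it was detected weakly in pools 1 and 2 and not in pool 3. miR-302b was undetected in all allogeneic pools, with a fall of at least 4.98-fold. The other embryonic assays had no called member, and the summed level of the 6 measured overlapped between groups, from -4.83 to -4.52 in syngeneic and from -7.11 to -4.00 in allogeneic grafts. On the X chromosome, miR-322 and miR-542-5p of one cluster fell by 1.12 and 0.92 on the log2 scale, with a median of -0.81 over the 5 measured. In the imprinted Dlk1-Dio3 region 26 assays were measured, of which miR-136 and miR-434-3p fell, a lower share than the 15.1% of all assays, and 0 were called higher, with a median of -0.19. The 2 calls were lost in 2 and 3 of 6 refits. miR-335-5p, inside the imprinted gene Mest, fell by 1.05 and its other arm differed by -0.31 without passing.

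MicroRNA families that share a seed moved together in some cases and apart in others. Among the 165 matched assays 26 seeds were shared by 2 or more, covering 75 assays. Calls fell on 15 of those seeds, and on 7 of them at least 2 members were called. The miR-30 seed was lower in 3 of its 4 matched members, miR-30c (-1.25), miR-30e (-1.02) and miR-384-5p (-1.25), with miR-30a at -0.67 (adjusted p = 0.0716). These calls depended on the pools, each being lost in 2 or 3 of 6 refits. The seeds of miR-7, of miR-221 and of miR-141 with miR-200a had both members higher, and that of miR-208 had both lower. The let-7 seed, on 8 assays, had no call and ran from -0.73 to 0.12.

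The miR-15/16 seed divided by gene locus. miR-15b rose from 2.03, 1.59 and 1.80 to 3.30, 3.34 and 2.31. miR-497 fell from 1.5, 1.05 and 0.80 to -0.72, -0.18 and -0.91. miR-195 and miR-322, the former a brake on heart muscle cell division after birth in mice, also fell, and miR-16 and miR-15a stood at 0.43 and 0.31 without passing. The call of miR-15b was lost in 5 of 6 refits with a pool left out, that of miR-195 in 5 and that of miR-322 in 2, while that of miR-497 held in all 6. Scaled to MammU6, no member of this family was called, miR-497 included. The miR-25 seed also held calls in both directions, miR-25 at 1.26 and miR-367 at -3.40, with miR-92a at 0.63 and miR-32 at 0.28 not called. The call of miR-25 was lost in 3 of 6 refits. miR-367 met the detection rule through the syngeneic arrays alone, which favours a fall, so that no split of this seed was read from it.

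**Figure D3:**
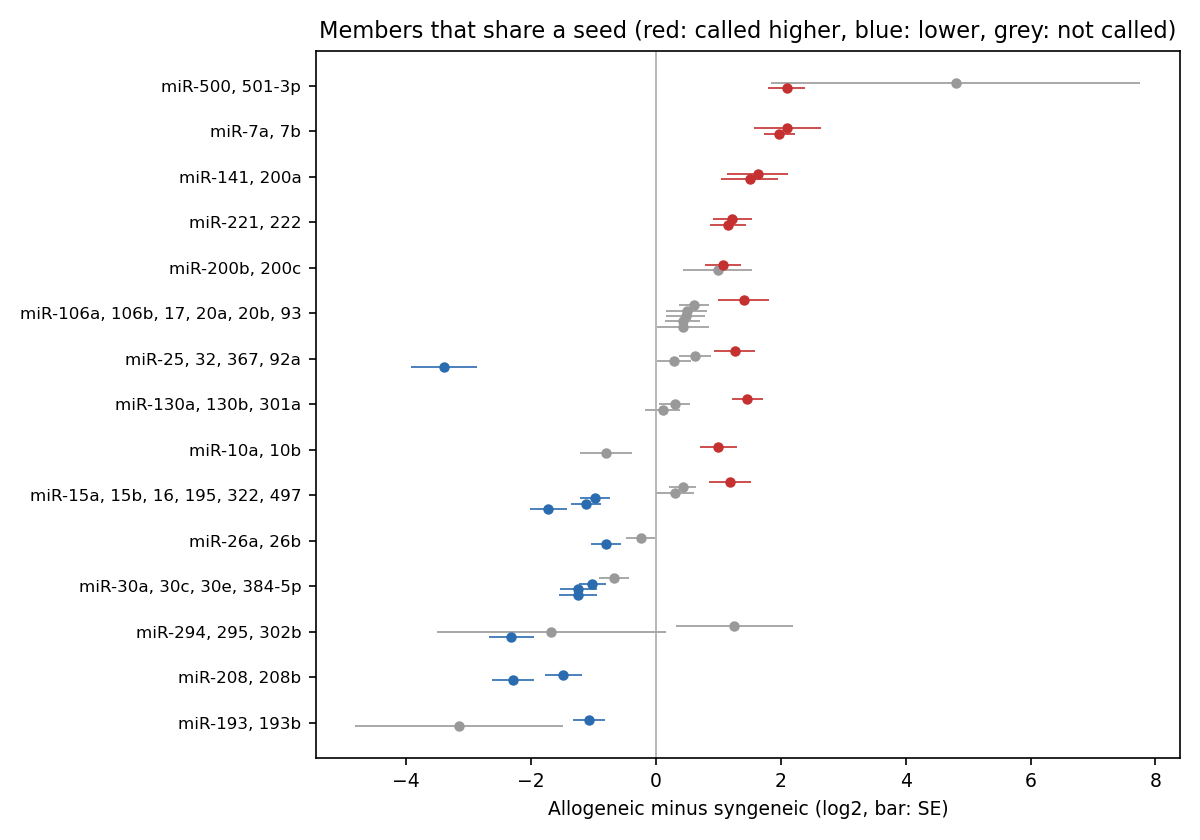
Allogeneic minus syngeneic difference (log2 units, bars are SE, n = 3 pools per group) of assays grouped by shared seed, for the 15 seeds with a called member. The members of the miR-15/16 seed lie on both sides of 0, from miR-497 at -1.72 to miR-15b at 1.18, while both miR-7 assays lie near 2 and both miR-208 assays below -1.

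The ratio of 2 assays on the same array does not depend on how arrays are scaled, and 10 such ratios were formed after the values had been seen. They were chosen and oriented with the difference known and are given as a description, with no test. That of miR-103 to miR-107 rests on an undetermined well in allogeneic pool 3 and was not read. The log2 ratio of miR-15b to miR-497 was 0.53, 0.53 and 0.99 in syngeneic pools and 4.02, 3.52 and 3.23 in allogeneic pools, a 7.49-fold difference. The normal heart had -0.08. The ratio of miR-16 to miR-195 differed by 2.64-fold and that of miR-25 to miR-92a by 1.55-fold. Between miR-10a and miR-10b the log2 ratio was 0.88, 0.07 and 0.92 in syngeneic pools and 2.67, 2.44 and 2.15 in allogeneic pools, a 3.47-fold difference. The ratio of miR-142-3p to miR-133a, a leukocyte over a muscle microRNA, was 9.90-fold higher in allografts, and that of miR-142-3p to miR-126-3p 9.69-fold higher.

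The arms of a hairpin were measured together for 17 precursors. In 15 of the 17 both arms differed in the same direction, and in miR-126, miR-142, miR-324 and miR-342 both were called. The calls of miR-142-5p, miR-324-5p and miR-342-3p were each lost in 5 of 6 refits with a pool left out. The arms of miR-125a and miR-125b went opposite ways, though no arm of either was called. For miR-125b the 3p arm stood at -4.53, -4.74 and -6.22 in syngeneic and at -4.26, -3.32 and -3.02 in allogeneic pools, while the 5p arm stood at 5.05, 5.04 and 4.97 against 4.50, 5.25 and 4.71. The ratio of the 3p to the 5p arm was 3.55-fold higher in allogeneic pools for miR-125b and 1.92-fold higher for miR-125a. In miR-342 the 5p arm rose more than the 3p arm, by 2.10-fold.

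**Figure D4:**
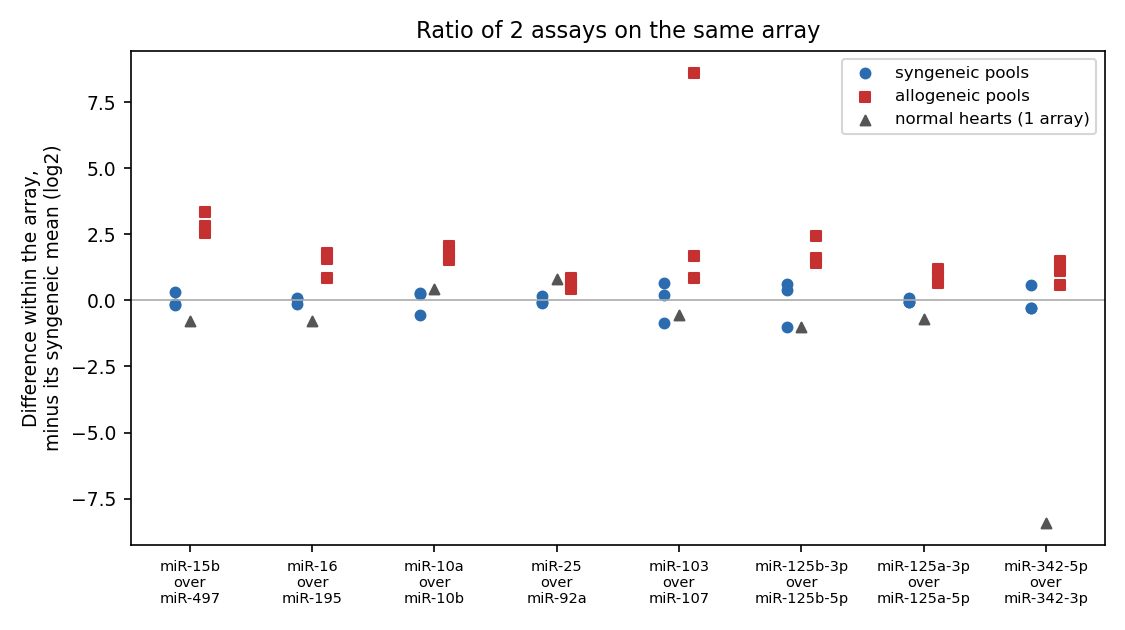
Difference in level between 2 assays on the same array (log2 units), minus its syngeneic mean, for 8 of the pairs in each syngeneic pool (blue), allogeneic pool (red) and the normal heart (grey). The pairs were chosen and oriented so that the allogeneic pools lie above the syngeneic pools, and 1 allogeneic pool is far above the rest for miR-103 over miR-107 because miR-107 was undetermined there.

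Members within 10000 bases of each other on one strand formed 37 clusters, of which 19 held a call. Calls fell on at least 2 different hairpins in 11 of the 19, and in those 11 they ran in one direction within each cluster. Both miR-497 and miR-195 (353 bases) fell, as did miR-30c with miR-30e (3098 bases) and miR-199a-3p with miR-214 (5577 bases), while miR-141 with miR-200c (430 bases) rose. Mature microRNAs with copies at more than 1 place, such as miR-16, were counted in each cluster that holds a copy.

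A rat-named and a mouse-named assay for one microRNA were both measured in 7 cases. The 2 differences lay within 0.35 log2 units of each other in 5 cases, miR-1, miR-339-3p, miR-345-3p, miR-381 and miR-532-5p. They were 0.98 apart for miR-224, where only the mouse-named assay was called, and 2.00 apart for miR-450a, where the rat-named assay was undetermined in allogeneic pool 2.

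A close match between groups was shown for few assays. The 95% interval of the difference lay within 1.5-fold either way for 2 assays (0.84%), miR-103 at 0.03 and miR-99a at -0.05. miR-103 stood at 0.56, 0.67 and 0.18 in syngeneic and at 0.61, 0.40 and 0.49 in allogeneic pools. For the other assays without a call these arrays do not show that the groups are alike, since the median SE of 0.30 leaves a wide interval.

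In all 19 assays differed by more than 2-fold without a call. Of these, 8 had a Ct on all 6 graft arrays, with differences of 1.04 to 1.63 log2 units in size and SEs of 0.34 to 1.06, and 11 were undetermined in at least 1 pool. Among assays and groups, 14 combinations had 1 or 2 undetermined pools, 9 of them with every other pool under Ct 30 and 9 of them allogeneic. miR-107 had a Ct of 25.4, 26.7 and 26.2 in syngeneic pools and of 27.7 and 27 in allogeneic pools 1 and 2, and was undetermined in pool 3. Its difference of -3.68 ± 1.93 was not called. miR-490, a muscle assay, had 24.4, 24.7 and 24.8 against 26.0 and 25.5 with allogeneic pool 2 undetermined. miR-511, a macrophage microRNA, was undetermined in the same pool, with 26.2 and 26.1 in the others. miR-501-3p and miR-682 showed the reverse, with syngeneic wells undetermined. Where the other pools are this far from the limit, the undetermined well sets the mean, and no direction was read from these assays.

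The normal BALB/c heart, 1 array and so without a test, was set beside both groups. Of the 41 rises 37 had the normal value nearer to the syngeneic than to the allogeneic mean, and 30 had it below all 6 graft pools. For the 36 falls the same held in 30, with 24 above all 6 pools. Over all 238 assays 185 had the normal value nearer to the syngeneic mean, 76 had it below all 6 graft pools and 89 had it above them. The exceptions among the falls included miR-135a and miR-367, whose normal values of -5.08 and -11.08 lay with the allografts.

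The arrays were run on several days, and 2 days held an array of each group, pairing syngeneic pool 1 with allogeneic pool 1 and syngeneic pool 2 with allogeneic pool 3. Within these days the called rises had a median difference of 1.58 and 1.40 and the called falls one of -1.30 and -1.51. The groups did not overlap in any of the 77 called assays, which fixes the direction of each within-day difference, so that no support was read from it. With run day as a fixed block 1 rise and 1 fall were called, miR-685 and miR-187, in a fit with 1 residual degree of freedom.

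The allogeneic effect in whole hearts was also set against that in lymphocytes recovered from grafts on day 5 (graft-infiltrating lymphocytes, 3 pools per group), by testing the difference of the 2 effects in 198 assays measured in both. The 2 sources differ in day as well as in cells, and each was scaled to its own reference assays. The effects differed in 57 assays (28.8%), with the heart effect above in 41 and below in 16. A heart effect above could be a larger rise in hearts, as for miR-685 below, or a fall in lymphocytes. The latter held for rat-named miR-351, at -0.22 in hearts and -4.39 in lymphocytes. Of 64 heart calls tested in both, 19 had a different effect in lymphocytes, so that most of the 57 were not heart calls. miR-685 rose by 7.35 in hearts and by 2.12 in lymphocytes, a difference of 5.23 ± 0.59 (limma adjusted p = 7.44e-04). miR-210 stood at 2.55 in hearts and 0.16 in lymphocytes, and the gap of 2.4 ± 0.46 was called, though not when scaled to MammU6 (adjusted p = 0.237) or to snoRNA135 with snoRNA202 (adjusted p = 0.0826). For miR-182 the effects were 2.64 and 2.95, and their difference of -0.31 ± 0.60 was not called, with an interval from -1.65 to 1.03.

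The muscle microRNAs miR-133a, miR-133b and miR-1 had opposite signs in the 2 sources. miR-133a differed by -1.67 in hearts and by 1.67 in lymphocyte preparations, a gap of -3.34 ± 0.48, miR-133b by -1.79 and 1.54, and miR-1 by -1.53 and 1.66. miR-30e differed by -1.02 and 0.63, a gap of -1.64 ± 0.26. In lymphocytes alone the differences of miR-1 and miR-30e were not called (limma adjusted p = 0.0787 and 0.0610). miR-21 and miR-222 rose more in hearts, with gaps of 0.92 ± 0.28 and 1.13 ± 0.37. Of the 6 largest heart changes with a called gap (miR-685, miR-451, miR-147, miR-210, miR-183 and miR-135a), miR-183 was the one whose gap was not called without allogeneic lymphocyte pool 3, a pool with 161 detected assays against 204 to 221 on the other 5. Its gap was then 1.58 (adjusted p = 0.0880), and the number of called gaps 58.

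**Figure D5:**
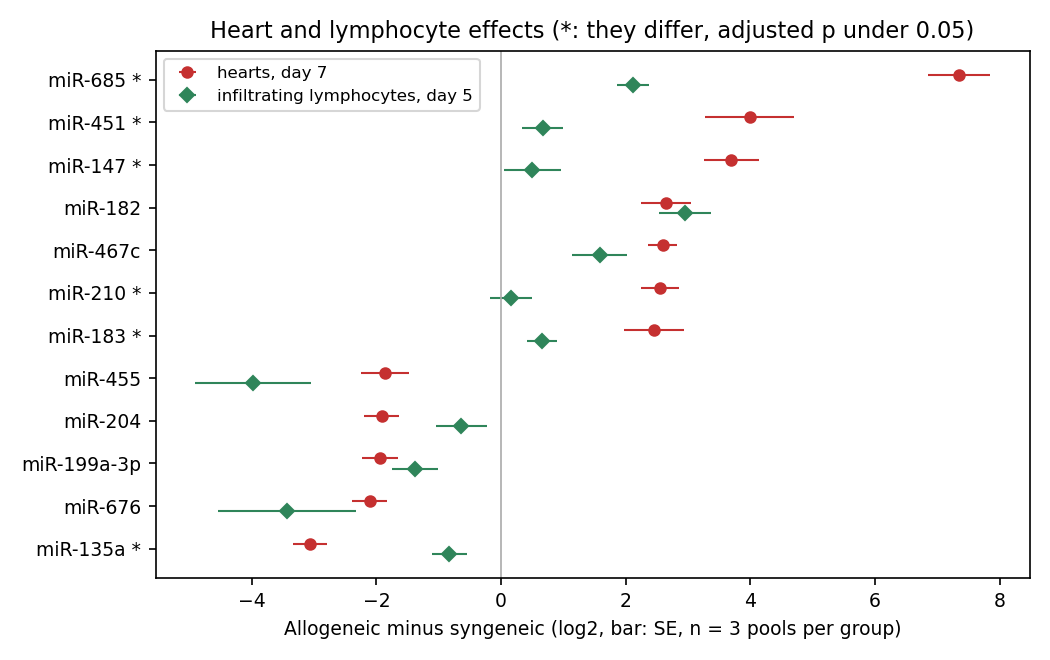
Allogeneic minus syngeneic difference (log2 units, bars are SE, n = 3 pools per group) in hearts on day 7 (red circles) and in graft-infiltrating lymphocytes on day 5 (green diamonds), for the largest called heart changes measured in both. An asterisk marks a called difference of the 2 effects: miR-685, miR-451, miR-147, miR-210, miR-183 and miR-135a.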

How the data were processed

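MicroRNA levels were measured on TaqMan rodent microRNA array cards, 384 wells per card, in 7 heart samples and 7 others. The latter were the graft-infiltrating lymphocyte pools and a normal control of blood mononuclear cells (PBMC). Per the labels, each card received 300 ng of RNA, 100 ng from each of 3 animals, reverse transcribed with Megaplex primers and preamplified. The deposited values are the Ct exported by the authors from the instrument software, per the file headers, with no normalization. Baseline and threshold settings are not given in the sources used here.

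Levels were computed as the mean Ct of the reference assays (microRNA assays detected on all 7 heart arrays) minus the assay's Ct, with undetermined wells and wells at Ct 35 or later set to 35. A fold change against a group with no detected well is a bound and is written as "at least". In 1 well (let-7b, allogeneic pool 2) the deposited array name did not match and the well was left out, so that let-7b was fitted on the other pools. Under R 4.3.3, limma 3.58.1 with lmFit and eBayes, two-sided, fitted 3 group means over 7 heart arrays, and a contrast of effects over the 12 graft arrays. The spread of the single normal array was taken to be that of the graft groups. Summed levels are the log2 of the sum of an assay list's values on the linear scale. The fit was tested on simulated data. Arrays give no counts, and their number limits the precision.

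Replicate numbers did not pair the samples: deviations of same-numbered syngeneic and allogeneic pools from their group means correlated at -0.09, -0.13 and -0.05 over assays. The members, lists, ratios and tests were chosen with earlier results of these data known. Named assays are the 10 largest called changes each way with groups that do not overlap, the called and up to 4 best-ranked members of each list, arm pairs, seeds with at least 2 calls, assays detected in 1 group only, the 5 narrowest intervals within 1.5-fold (2 met it) and the 2 assays nearest the detection rule on each side. miR-224, miR-682, miR-93, miR-511 and the rat-named assays were named after their values were seen. Sequences, positions and host genes are those of RefSeq on GRCm38.p6, and old assay names were assigned to arms by hand. Alternatives were 6 other scalings, other detection limits and filters, marked wells, moderation settings, blocks and leaving out each pool.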

Additional observations from a re-analysis of the deposited data

Results flagged for a closer look

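Among the largest called heart changes, 12 were tested in both sources. For 6 of them the allogeneic effect differed between whole hearts on day 7 and graft-infiltrating lymphocytes on day 5. The test was limma's interaction contrast (3 pools per group in each source, adjusted over 198 assays), which called 28.8% of all 198 gaps. The 12 were chosen for large heart effects, which are part of the gap, so that large gaps are favoured. The heart effect was higher by 5.23 log2 units for miR-685, by 3.32 for miR-451, by 3.19 for miR-147, by 2.4 for miR-210 and by 1.79 for miR-183. For miR-135a the difference was -2.23, the heart effect being the lower. As each of the 12 pools was left out in turn, the gap stayed called for miR-685 (4.73 to 5.51), miR-451 (2.63 to 4.02), miR-147 (2.72 to 3.55), miR-210 (2.05 to 2.62) and miR-135a (-2.42 to -2.04). That of miR-183 ran from 1.32 to 2.13 and was not called in 8 of the 12 refits. Scaled to MammU6, the gaps of miR-685 (4.29) and miR-135a (-3.17) were called and those of miR-210 (1.46), miR-147 (2.25), miR-451 (2.38) and miR-183 (0.85) were not. The same 4 gaps were not called when scaled to snoRNA135 with snoRNA202, at 1.67, 2.46, 2.60 and 1.07 (adjusted p = 0.0826, 0.0515, 0.0706 and 0.261), and those of miR-451 and miR-183 were not called under the replicate block (adjusted p = 0.0532 and 0.135). With undetermined wells at Ct 40 the gap of miR-135a was -0.57 and was not called, since allogeneic lymphocyte pool 3 had no Ct for it.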

How the results depend on the processing

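Against 41 rises and 36 falls, the calls numbered 18 and 16 when scaled to MammU6, 24 and 56 with the reference median in place of the mean, and 21 and 21 with no filter. Scaled to snoRNA202 there were 23 falls. The replicate block left 25 and 21, though the replicate numbers do not pair these pools, and run day as a fixed block left 1 and 1, with 1 residual degree of freedom. Without 1 pool in turn, 22 to 43 rises and 18 to 38 falls were called. The 57 called gaps between hearts and lymphocytes became 15 when scaled to MammU6, 27 to snoRNA135 with snoRNA202 and 31 under the replicate block, and 41 to 59 without 1 pool. Under all 6 other scalings 18 rises and 12 falls were called. In no alternative did any of the 77 change sign, which groups without overlap largely fix when a pool is left out. The remaining alternatives left the counts within 1.5 times. The cause of these changes was not tested, beyond the larger number of assays tested without the filter and the fewer residual degrees of freedom under the blocks. Setting marked wells to missing applied to wells with a Ct. With 3 pools per group and weak signals near Ct 35, differences close to the limit rest on few cycles.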
